A study of Mus musculus with 16 samples.

Results

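The genes described here are the SLC25 mitochondrial carriers, taken as every symbol of the RNA-seq count table that starts with Slc25a, with Slc25a37 and Slc25a38 left out. The table held 43 such symbols, so the set is 41 carriers among 15386 genes, and 39 of them were also in the table of the m6A experiment. SLC25 proteins sit mostly in the inner mitochondrial membrane, are built from repeats of one ancestral unit, and exchange nucleotides, phosphate, organic acids, amino acids and cofactors between cytosol and matrix. Erythroid progenitors rely on this traffic because the early and late steps of heme synthesis, and part of folate-dependent nucleotide synthesis, take place inside the organelle.

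The cells were CFU-E, the colony-forming erythroid progenitors, sorted from the bone marrow of adult male and female C57BL/6 mice as cells without lineage, CD16/32, CD41, CD34 and Sca1 markers that carried Kit and CD71. RNA-seq was made from 3 libraries of control CFU-E and 3 libraries labelled as Mettl3 KO CFUE Kit low. The latter, called Mettl3-deficient CFU-E Kit-lo or Kit-lo for short, came from mice in which Mettl3 fl/fl was combined with EpoR-tdTomato-Cre (EpoR Cre/-). This Cre is driven from the erythropoietin receptor locus and is also active in macrophages of erythroblastic islands. In stem and progenitor cells without lineage markers that carry Sca1 and Kit, the paper reports a partial loss of Mettl3 mRNA. The 2 RNA-seq groups differed in genotype and in the Kit gate at once, so that the effects of the deletion and of the gate cannot be told apart. In the second experiment m6A-marked RNA of control CFU-E was captured with an antibody, giving 2 IP libraries, and was set against 2 input libraries. The 6 libraries of proerythroblasts (ProE) named in the labels were not analysed here.

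The RNA-seq libraries held 17429262 to 21329242 estimated counts, the input libraries 23160909 and 19421059, and the IP libraries 37142742 and 20085663. Values per library are CPM, counts scaled to 1000000 per library after TMM normalization, fold changes are log2 values with their SE, and adjusted p comes from the quasi-likelihood test of edgeR, adjusted by the Benjamini-Hochberg method over all genes tested. A gene was called higher or lower in RNA-seq at a fold change of at least 1.5 and an adjusted p under 0.05, and called in the IP at an adjusted p under 0.05.

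Mettl3, which encodes the catalytic subunit of the m6A writer, was at 115, 123 and 130 CPM in control CFU-E, and the libraries carrying the Mettl3-deficient Kit-lo label held 117, 127 and 108 CPM. The groups overlapped (log2 fold change -0.07 ± 0.10, adjusted p = 0.634), so the mRNA level did not separate the genotypes, and every direction below rests on the labels. The count covers all exons of the gene and does not show the loss of single exons. By other assays, in erythroid cells of such mice, the paper reports Mettl3 mRNA and protein as absent and global m6A as lower. Kit, the gene of the sorting marker, fell from 544, 629 and 622 CPM to 68.5, 53.1 and 44.0 CPM (log2 fold change -3.44 ± 0.15), a difference the gate itself selects for.

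Markers of other stages and cell types were read beside the carriers. The most abundant or leading marker of a list is the one with the highest mean CPM over the 6 libraries, not in each. Of all genes tested, 12.1% were called higher and 9.83% lower in Kit-lo. Of 10 late erythroid markers 7 were called higher and 0 lower, and their summed level was 1243, 1140 and 1244 CPM in control CFU-E against 3085, 4058 and 3407 CPM in the Kit-lo libraries, with Ermap the most abundant. Of 8 tested early progenitor markers 4 were called lower and 0 higher, and the sum went from 1964, 1963 and 2100 CPM to 1155, 1098 and 986 CPM, with Myc the most abundant. Kit, the gene of the sorting marker, is among these markers and these calls, so the gate itself set part of the fall. Macrophage markers summed to 8.69 to 13.7 CPM in control CFU-E and 7.82 to 9.39 CPM in Kit-lo, led by Cd68, with 0 called higher and 1 lower of 5 tested. Granulocyte markers summed to 39.2, 29.7 and 25.8 CPM against 16.4, 16.1 and 24.8 CPM, led by Mpo, with 1 called higher and 1 lower of 4 tested. Megakaryocyte markers, led by Vwf, summed to 21.1 to 27.2 CPM against 21.2 to 29.2 CPM, with 2 called higher and 1 lower of 5 tested, and lymphocyte markers, led by Cd79a, stayed under 2.72 CPM in sum with 0 tested. No marker present in the table was at 0 in all 6 libraries. The shift from early progenitor to late erythroid markers moved with the groups, on the early side partly through Kit, which was sorted on. Its part in the carrier results below was not tested. In bulk libraries fewer cells of a type and less RNA per cell cannot be told apart.

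The carriers spanned nearly 4 orders of magnitude in level. Levels between genes were compared as counts per kilobase of annotated exon scaled to 1000000 per library, called the per-length level here. Slc25a5, the adenine nucleotide translocase ANT2, stood highest in control CFU-E at 842 ± 59.0 (SD, n = 3). It was followed by the citrate carrier Slc25a1 at 235 ± 4.17, the oxoglutarate and malate carrier Slc25a11 at 220 ± 3.31, the glutathione importer Slc25a39 at 206 ± 15.1 and the phosphate carrier Slc25a3 at 155 ± 3.37. Slc25a11 and Slc25a39 did not differ beyond their spread, whereas Slc25a5 and Slc25a3 stood apart from their neighbours in the order. These 5 carriers made up 62.4% of the summed carrier level in control CFU-E and 55.0% in Kit-lo. With the longest transcript as length, Slc25a39 was at 257 and exceeded Slc25a1, at 233, so that the order below Slc25a5 depends on the gene model. Counts of Slc25a5 are uncertain because an annotated pseudogene, Slc25a5-ps, can share its reads. At the other end 3 carriers were below 1 on this scale in control CFU-E, the lowest being Slc25a48 at 0.0963.

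**Figure D1:**
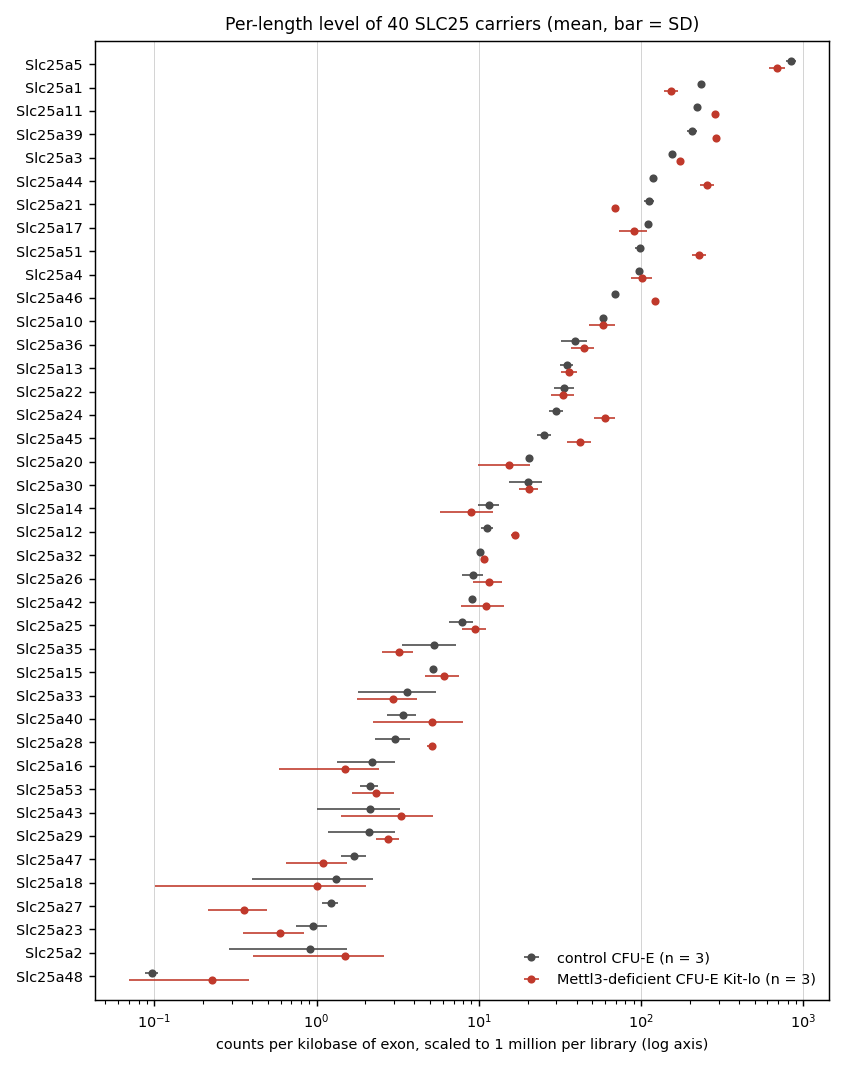
Per-length level of 40 carriers on a log axis, ordered by control CFU-E; points are means of 3 libraries, grey for control and red for Mettl3-deficient CFU-E Kit-lo, and bars are SD (a bar that would reach 0 is cut short). Slc25a5 leads in both groups, while Slc25a44 moves from rank 6 to rank 4 and Slc25a51 from rank 9 to rank 5.

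All carriers together took 0.275%, 0.259% and 0.262% of the per-length level in the control libraries, against 0.309%, 0.290% and 0.272% in Kit-lo, ranges that overlapped. Their summed CPM was 2772, 2620 and 2708 in control CFU-E and 3120, 2958 and 3028 in Kit-lo, ranges that did not overlap. The order of the carriers moved as well. The citrate carrier Slc25a1 went from rank 2 to rank 7 in per-length level, the branched-chain amino acid carrier Slc25a44 from 6 to 4, and the NAD+ carrier Slc25a51 from 9 to 5. In control CFU-E, Slc25a44 at 118 ± 2.28 was within the spread of Slc25a21 at 112 ± 8.28 (SD, n = 3). With the longest transcript as length, Slc25a44 was at 90.2, below Slc25a21 at 160 and Slc25a51 at 93.2, so its starting rank depends on the gene model.

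Which carriers differed between control CFU-E and the Kit-lo libraries was asked with 1 fit over 11979 genes. Of the 41 carriers, 39 had enough counts to be tested, and Slc25a2 and Slc25a48, with 1 to 24 counts in a library, did not. Called higher were 5 carriers, Slc25a51, Slc25a44, Slc25a24, Slc25a46 and Slc25a45, which is 12.8% of those tested beside 12.1% of all genes. Called lower were 4 carriers, among them Slc25a27, Slc25a21 and Slc25a1, which is 10.3% beside 9.83% of all genes. Both shares were near the background, so the calls say nothing particular about the carriers as a set. The median log2 fold change of the tested carriers was 0.011, beside 0.0080 for all genes tested, and the median size of the change without its sign was 0.46 beside 0.38. The 3 control values and the 3 Kit-lo values did not overlap for 18 of the 39 carriers, 10 of them higher and 8 lower in Kit-lo, which is 46.2% beside 47.5% of all genes.

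**Figure D2:**
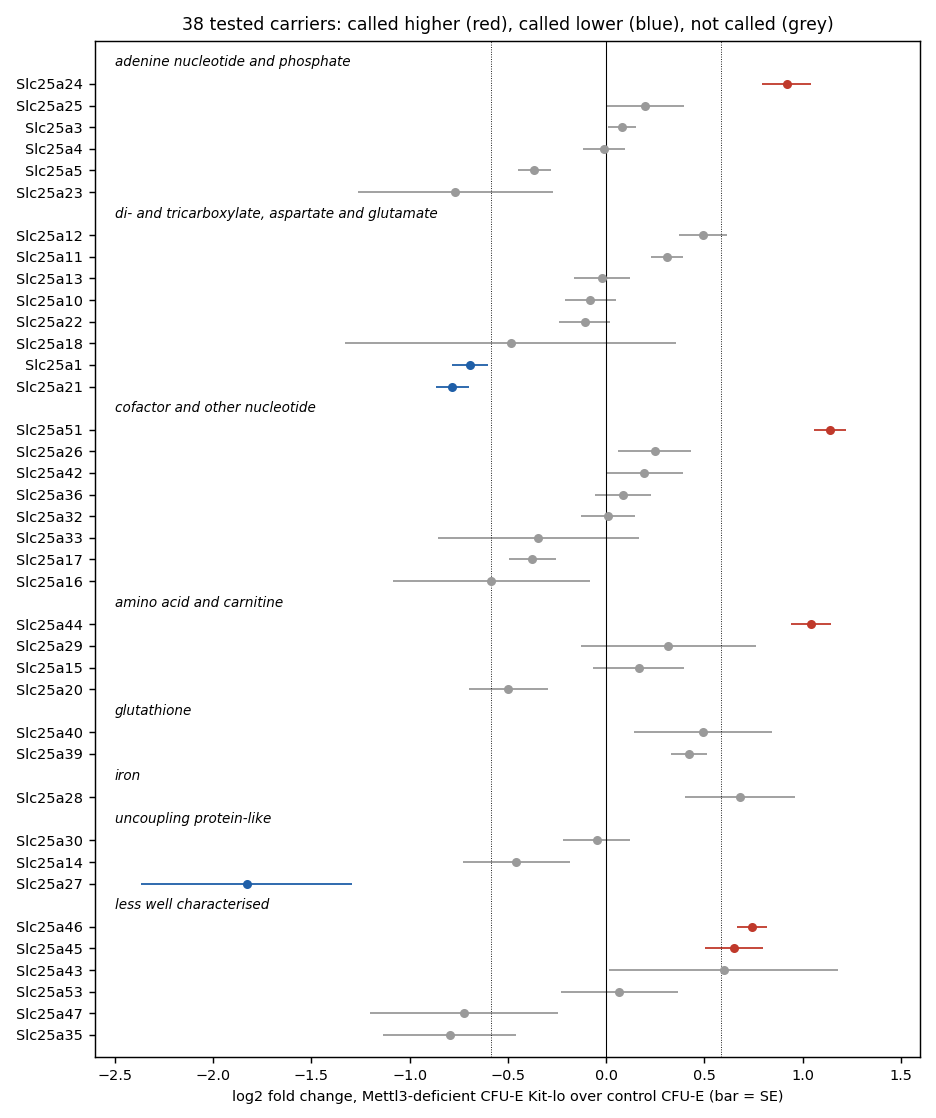
Log2 fold change of 38 tested carriers, Mettl3-deficient CFU-E Kit-lo over control CFU-E, arranged by transported substrate; bars are SE, dotted lines mark a fold of 1.5, red and blue mark carriers called higher and lower. Red points occur in 4 of the 8 substrate groups and blue points in 2, and Slc25a51 at 1.14 and Slc25a27 at -1.83 are the outer values.

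Of the 6 tested carriers of adenine nucleotides and phosphate, 1 was called higher and 0 lower. This was Slc25a24 (ENSMUSG00000040322, GRCm38 chr3:109123149-109168457, plus strand), the calcium-regulated ATP-Mg and phosphate carrier that sets the nucleotide content of the matrix. It was at 33.4, 37.5 and 31.7 CPM in control CFU-E and at 62.2, 72.7 and 59.0 CPM in Kit-lo. Every Kit-lo library was above every control library (log2 fold change 0.92 ± 0.13, adjusted p = 0.000389). Its close relative Slc25a25 measured 20.6 ± 3.42 CPM (SD, n = 3) against 23.7 ± 4.99 CPM in Kit-lo and was not called (0.20 ± 0.19, adjusted p = 0.472).

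The ADP/ATP translocases Slc25a4 (ANT1) and Slc25a5 (ANT2) export ATP made by oxidative phosphorylation. Slc25a5 was at 491, 428 and 465 CPM in control CFU-E and at 378, 365 and 332 CPM in Kit-lo, with no overlap. Its log2 fold change of -0.36 ± 0.08 had an adjusted p of 0.00713 but stayed under the fold threshold. Slc25a4 was at 74.9, 73.6 and 79.4 CPM against 84.5, 71.8 and 69.8 CPM, which overlapped. The log2 ratio of Slc25a4 to Slc25a5 within a library was -2.71, -2.54 and -2.55 in control CFU-E and -2.16, -2.34 and -2.25 in Kit-lo, so all 3 Kit-lo libraries were above all controls. The exact two-sided permutation test gave p = 0.10, the smallest that 3 libraries against 3 allow, and 0.35 after adjustment over the 7 pairs of relatives examined. Slc25a3, which brings in the phosphate for ATP synthesis, was at 286 ± 2.78 CPM (SD, n = 3) and 303 ± 8.87 CPM (0.08 ± 0.07, adjusted p = 0.412).

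Among the 8 carriers of di- and tricarboxylates, aspartate and glutamate, 0 were called higher and 2 lower. Slc25a1 (ENSMUSG00000003528, chr16:17925223-17928219, minus strand) exports citrate, the source of cytosolic acetyl-CoA. It was at 171, 166 and 170 CPM in control CFU-E and at 112, 93.3 and 108 CPM in Kit-lo. The control libraries lay close together and all above the Kit-lo libraries (log2 fold change -0.69 ± 0.09, adjusted p = 0.00035). Slc25a21 (ENSMUSG00000035472, chr12:56712634-57197472, minus strand) carries 2-oxoadipate and related oxodicarboxylates of lysine and tryptophan breakdown. It fell from 194, 180 and 172 CPM to 103, 105 and 110 CPM (log2 fold change -0.78 ± 0.09, adjusted p = 9.19e-05). Of the 4872 annotated exonic bases of Slc25a21, 189 overlap Pax9 on the other strand, and since the strand used in counting is not given in the sources used here, reads in that stretch cannot be told apart.

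The other carriers of this group did not pass the call. Slc25a11 was at 155 ± 4.15 CPM (SD, n = 3) and 192 ± 12.3 CPM, with an adjusted p of 0.0146 below the fold threshold (0.31 ± 0.08). Slc25a12 (aralar) and Slc25a13 (citrin) exchange aspartate for glutamate in the malate-aspartate shuttle. Slc25a12 was at 28.1, 29.1 and 25.2 CPM against 39.01, 37.8 and 38.96 CPM with no overlap (0.49 ± 0.12, adjusted p = 0.0106), and Slc25a13 at 46.6, 38.9 and 46.7 CPM against 43.2, 37.0 and 50.3 CPM. The log2 ratio of Slc25a12 to Slc25a13 was -0.73, -0.42 and -0.89 in control CFU-E and -0.15, 0.03 and -0.37 in Kit-lo, again with no overlap (exact permutation p = 0.10, adjusted p = 0.35). Of the glutamate carriers, Slc25a22 was at 67.2 ± 8.90 CPM (SD, n = 3) and 62.3 ± 7.11 CPM, and Slc25a18 at no more than 1.26 CPM in any library.

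Among the carriers of cofactors and other nucleotides, Slc25a51 was the one called higher. Slc25a51 (ENSMUSG00000045973, chr4:45395923-45408766, minus strand), which brings NAD+ into the matrix, had the highest fold change of all carriers. It was at 190, 169 and 182 CPM in control CFU-E and at 419, 393 and 378 CPM in Kit-lo, a 2.20-fold difference with wide separation of the groups (log2 fold change 1.14 ± 0.08, adjusted p = 7.36e-06).

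The following carriers of this group gave no call. Slc25a32, the carrier that brings folate into the matrix, was at 20.3, 19.5 and 21.6 CPM in control CFU-E and at 19.7, 20.7 and 21.4 CPM in Kit-lo. These values interleaved, with a log2 fold change of 0.01 ± 0.14 (adjusted p = 0.964). The pyrimidine nucleotide carriers Slc25a33 and Slc25a36 were at 2.27 ± 1.13 against 1.78 ± 0.77 CPM and at 125 ± 23.6 against 133 ± 14.7 CPM (SD, n = 3). The coenzyme A carriers Slc25a16 and Slc25a42 were at 3.49 ± 1.34 against 2.33 ± 1.56 CPM and at 18.1 ± 0.28 against 20.7 ± 5.16 CPM. Slc25a17, a carrier of the peroxisomal membrane, was at 105 ± 5.58 CPM and 81.1 ± 12.7 CPM, with an adjusted p of 0.0347 below the fold threshold (-0.38 ± 0.12).

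Of 4 tested amino acid and carnitine carriers, 1 was called higher and 0 lower. Slc25a44 (ENSMUSG00000050144, chr3:88410498-88425139, minus strand) moves branched-chain amino acids into mitochondria. It rose from 142, 138 and 141 CPM to 294, 249 and 325 CPM, a 2.06-fold difference, and its lowest Kit-lo value was well above its highest control value (log2 fold change 1.04 ± 0.10, adjusted p = 4.87e-05). The other tested members were the ornithine carrier Slc25a15, the carnitine and acylcarnitine carrier Slc25a20 and the basic amino acid carrier Slc25a29, with log2 fold changes of 0.17, -0.50 and 0.32 and adjusted p of 0.634, 0.0835 and 0.633. For Slc25a20 the groups did not overlap, with 31.6, 32.2 and 34.4 CPM in control CFU-E and 31.5, 19.96 and 18.04 CPM in Kit-lo.

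The 2 glutathione carriers gave 0 calls by edgeR or DESeq2, and 1 was higher at an unadjusted p under 0.05, beside 22% of all genes. Slc25a39 was at 185, 202 and 179 CPM in control CFU-E and at 243, 237 and 278 CPM in Kit-lo, with no overlap but under the fold threshold (log2 fold change 0.42 ± 0.09, adjusted p = 0.00506). Its relative Slc25a40 was at 10.3, 10.8 and 7.39 CPM against 11.9, 21.1 and 7.04 CPM. The Slc25a40 value of 0.49 (adjusted p = 0.321) depended on single libraries. Without the third Kit-lo library the log2 fold change was 0.80 with an adjusted p of 0.0389, and without the second it was 0.024 with an adjusted p of 0.965. Slc25a28, the iron carrier mitoferrin 2, was at 4.55, 3.95 and 2.81 CPM against 5.97, 6.21 and 5.998 CPM (0.68 ± 0.28, adjusted p = 0.0886). For comparison, both carriers left out of the set were called higher. Slc25a37 (mitoferrin 1), the erythroid iron importer, went from 13.1, 13.3 and 11.9 CPM to 47.7, 60.9 and 66.7 CPM (2.19 ± 0.16), and Slc25a38, a glycine carrier needed for heme synthesis, from 177, 176 and 171 CPM to 248, 294 and 346 CPM (0.76 ± 0.11).

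Among the 3 carriers that resemble uncoupling proteins, Slc25a27 (UCP4, ENSMUSG00000023912, chr17:43641891-43667214, minus strand) was called lower at a level close to the detection limit. It was at 1.58, 1.77 and 1.43 CPM in control CFU-E and at 0.467, 0.243 and 0.626 CPM in Kit-lo, with no overlap (log2 fold change -1.83 ± 0.54, adjusted p = 0.024). Slc25a27 was the 1 tested carrier that passed the filter on low counts, at 0.526 CPM in 3 libraries, only through the group where it is high, here control CFU-E, so its call had to be of this direction if made. The adjusted p was above 0.05, between 0.0569 and 0.0858, when any single library other than the third Kit-lo library was left out. Slc25a14 (UCP5) and Slc25a30 had log2 fold changes of -0.46 and -0.05 and were not called.

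Of 6 tested carriers that are less well characterised, 2 were called higher and 0 lower. Slc25a46 (ENSMUSG00000024259, chr18:31556111-31609911, minus strand) is a member of the outer membrane that takes part in mitochondrial shape and lipid handling. It was at 124, 125 and 126 CPM in control CFU-E and at 202, 214 and 213 CPM in Kit-lo, and the spread within each group was small beside the gap (log2 fold change 0.74 ± 0.08, adjusted p = 6.53e-05). Its exons overlap B930094E09Rik on the other strand. Slc25a45 (ENSMUSG00000024818, chr19:5877808-5885878, plus strand) was at 23.7, 20.5 and 25.6 CPM against 41.3, 35.8 and 32.5 CPM (0.65 ± 0.15, adjusted p = 0.00679). It fell under the fold threshold without the second control library, at 0.56, and without the first Kit-lo library, at 0.55.

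**Figure D3:**
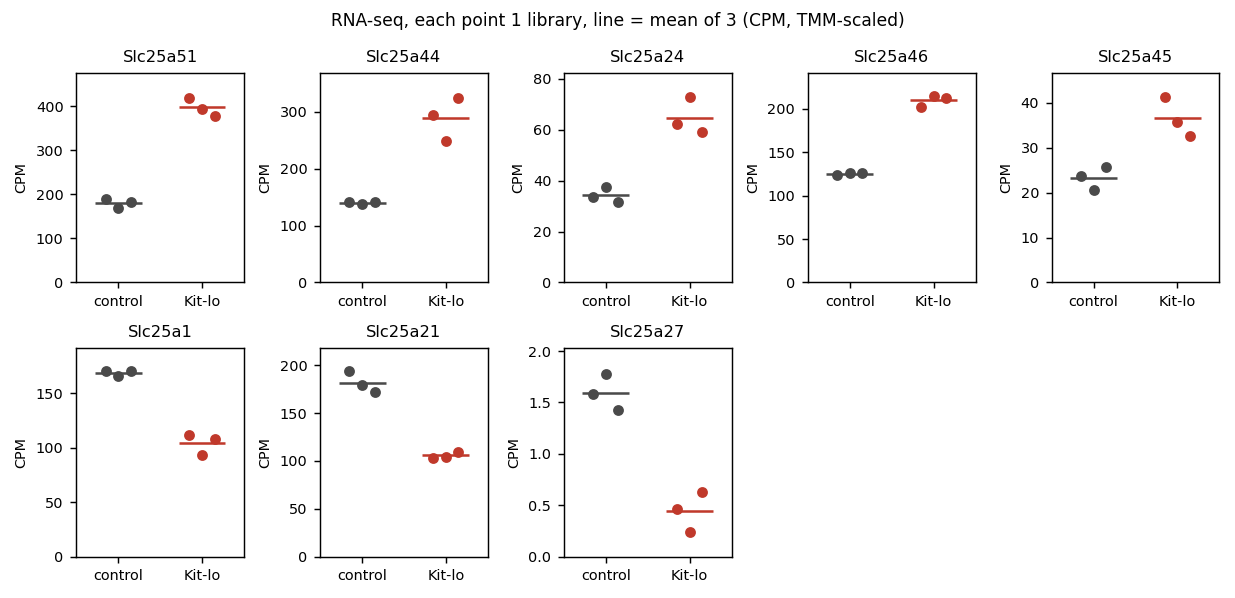
CPM of 8 called carriers in each RNA-seq library; each point is 1 library, lines are means of 3, and every vertical axis starts at 0. The panels were picked by their calls, so the separate ranges of control and Kit-lo points in all 8 are no added support. Of all genes tested, 47.5% had groups that did not overlap. Slc25a27, which passed the filter on low counts only through control CFU-E, lies below 2 CPM throughout.

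In the remaining pairs of relatives the ratios of the groups overlapped. The log2 ratio of Slc25a24 to Slc25a25 was 0.495, 1.14 and 0.58 in control CFU-E and 1.75, 1.58 and 1.06 in Kit-lo, where the lowest Kit-lo value was just under the highest control value (exact permutation p = 0.20, adjusted p = 0.467). For Slc25a39 over Slc25a40, Slc25a33 over Slc25a36, Slc25a18 over Slc25a22 and Slc25a16 over Slc25a42, the mean log2 ratio differed by 0.05, -0.44, -0.39 and -0.87, and the exact permutation p was 0.90, 0.70, 1.0 and 0.30. The sign of the first 3 of these differences turned when single libraries were left out.

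Other mitochondrial genes were counted beside the carriers. In Kit-lo, 12.1% of all genes tested were called higher and 9.83% lower. At an unadjusted p under 0.05 these shares were 22% and 21.5%. Of 3 tested SLC25 relatives under other names, 0 were called in either direction by edgeR or DESeq2 and 1, Ucp2, was higher at an unadjusted p under 0.05. Ucp2 had a mean of 605 CPM in control CFU-E against 903 CPM in Kit-lo (log2 fold change 0.58 ± 0.08, just under the fold threshold). Of 12 tested genes that import carriers into the inner membrane, such as the TIM22 complex and its chaperones, 0 were called by edgeR's quasi-likelihood test and 1 by DESeq2, with 3 higher and 3 lower at an unadjusted p under 0.05. Of 20 mitochondrial transport genes from other families, 3 were called higher and 0 lower, while 5 were higher and 3 lower at an unadjusted p under 0.05. Abcb6 and Abcb10, ABC transporters linked to heme synthesis, rose from 157, 157 and 165 CPM to 454, 413 and 487 CPM (1.496 ± 0.08) and from 154, 173 and 173 CPM to 422, 450 and 513 CPM (1.47 ± 0.09). Mcub, an inhibitory subunit of the calcium uniporter, had 6, 0 and 2 counts in control CFU-E and 52, 82 and 26 counts in Kit-lo, and passed the filter on low counts only through Kit-lo, where it is high, so its call is given as a count and not as support. Of 15 general mitochondrial genes, 0 were called higher and 1 lower, Phb (prohibitin), which fell from 336, 303 and 328 CPM to 65.2, 60.4 and 66.5 CPM (-2.33 ± 0.09). At an unadjusted p under 0.05, 0 genes of this list were higher and 6 lower, beside 22% and 21.5% of all genes tested. Hspa9, a matrix chaperone, was one of them, with means of 958 ± 37.4 CPM against 721 ± 63.5 CPM in Kit-lo (SD, n = 3), under the fold threshold (-0.41 ± 0.08, adjusted p = 0.00362).

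The second experiment asked which carrier mRNAs were captured by the m6A antibody in control CFU-E. The modification is written by a complex with METTL3 at adenosines within a short consensus whose commonest core is GGACT, and in many mRNAs it is concentrated in long internal exons and around the stop codon. All 39 carriers in the table were tested among 11447 genes, and Slc25a2 and Slc25a18 were not analysed here. Enriched in the IP were 5 carriers, Slc25a30, Slc25a36, Slc25a40, Slc25a32 and Slc25a46, which is 12.8% beside 7.9% of all genes. Lower in the IP were 5 carriers, Slc25a33, Slc25a23, Slc25a47, Slc25a45 and Slc25a1, which is 12.8% beside 7.86% of all genes. At 5 carriers in each direction, nothing particular to the set is read from these shares. The median log2 IP over input was -0.22 for the carriers and 0.056 for all genes. With 2 libraries a group these calls were fragile, and without the first input library 0 carriers were enriched and 1 was lower by edgeR's test, while 5 were higher and 5 lower at an unadjusted p under 0.05, beside 10.7% and 9.05% of all genes.

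For 9 of the 10 carriers called in the IP, all but Slc25a46, the GGACT nearest to the stop codon that lies with its flanks in a single exon is given here (GRCm38, 25 bases of the mRNA strand, GGACT in capitals). They place the candidate letters of enriched and depleted mRNAs side by side. Those of Slc25a30, Slc25a36, Slc25a40 and Slc25a32 come from mRNAs enriched in the IP:
Slc25a30 (chr14:75762644-75762668, minus strand, exon 10 of 10, 7 bases before the stop codon): tgaagaaactGGACTtgtgaccaca
Slc25a36 (chr9:97080407-97080431, minus strand, exon 6 of 7, 420 bases before the stop codon): tcagacagacGGACTgcgaggattt
Slc25a40 (chr5:8452763-8452787, plus strand, exon 11 of 12, 158 bases before the stop codon): atgtcaacctGGACTataatgaaga
Slc25a32 (chr15:39105834-39105858, minus strand, exon 2 of 7, 660 bases before the stop codon): tttatcctggGGACTctactttttc

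The windows of the carriers lower in the IP were taken the same way:
Slc25a33 (chr4:149744819-149744843, minus strand, exon 7 of 7, 93 bases before the stop codon): cttctaccgaGGACTgtttgctcag
Slc25a23 (chr17:57045255-57045279, minus strand, exon 10 of 10, 212 bases after the stop codon): caggatcccaGGACTtgatccccaa
Slc25a47 (chr12:108856111-108856135, plus strand, exon 6 of 6, 96 bases before the stop codon): gctcttcaagGGACTggcactcaac
Slc25a45 (chr19:5884843-5884867, plus strand, exon 6 of 6, 136 bases before the stop codon): gagggatgctGGACTgcatggcaag
Slc25a1 (chr16:17926057-17926081, minus strand, exon 8 of 9, 154 bases before the stop codon): ggaacaccctGGACTgcggcttgaa

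These windows were picked for holding GGACT, so its presence in them cannot separate enriched from depleted carriers. Gene counts do not show where in an mRNA the antibody bound.

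Slc25a30, an uncoupling protein-like carrier, had the highest enrichment of the 5. It was at 0.705 and 1.80 CPM in the input and at 4.91 and 5.43 CPM in the IP, from 16 and 32 counts and 205 and 108 counts (log2 IP over input 2.07 ± 0.46, adjusted p = 0.014). Without the first input library it was 1.495 with an adjusted p of 0.12. Slc25a36, the pyrimidine nucleotide carrier, was the most abundant of them, at 32.8 and 64.2 CPM in the input and 134 and 136 CPM in the IP (1.48 ± 0.30, adjusted p = 0.0092). Its input libraries differed by more than its IP libraries did, and without the first input library the value was 1.05 (adjusted p = 0.0989).

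The folate carrier Slc25a32 was at 2.65 and 1.80 CPM in the input and at 7.82 and 4.22 CPM in the IP (1.44 ± 0.41, adjusted p = 0.0377). Slc25a40, a glutathione carrier, was at 2.91 and 2.19 CPM against 8.68 and 5.18 CPM (1.44 ± 0.37, adjusted p = 0.0272). For Slc25a46 the values were 14.7 and 16.9 CPM against 39.2 and 24.6 CPM (1.01 ± 0.29, adjusted p = 0.0379). In all 3 both IP values were above both input values, and the first IP library was the higher. The calls of these 3 carriers were lost without the first IP library, with adjusted p of 0.227, 0.144 and 0.227, and without either input library, with adjusted p of 0.0739 to 0.233.

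Slc25a33, the other pyrimidine nucleotide carrier, was the most depleted carrier. It was at 32.8 and 31.1 CPM in the input and at 2.71 and 3.22 CPM in the IP, a 10.8-fold difference (log2 IP over input -3.44 ± 0.28, adjusted p = 2.72e-05). This call was the only one of the 10 kept without each library in turn, and exons of Slc25a33 overlap Gm13068 on the other strand. The relatives Slc25a33 and Slc25a36 were therefore called in opposite directions, although the difference between them was not tested.

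The other 4 depleted carriers had smaller differences. The ATP-Mg carrier Slc25a23, whose exons overlap Gm17168 on the other strand, was at 4.14 and 3.32 CPM in the input against 1.25 and 0.905 CPM in the IP (-1.77 ± 0.42, adjusted p = 0.0179). Slc25a47 was at 4.89 and 4.05 CPM against 1.75 and 1.61 CPM (-1.41 ± 0.37, adjusted p = 0.0288). Without the first input library the adjusted p was 0.141 for Slc25a23 and 0.193 for Slc25a47. Slc25a45 was at 21.9 and 20.9 CPM against 11.2 and 11.8 CPM (-0.90 ± 0.25, adjusted p = 0.037), and was not called without either input library or the first IP library (adjusted p 0.104 to 0.193). The citrate carrier Slc25a1 was at 393 and 320 CPM against 203 and 193 CPM (-0.85 ± 0.22, adjusted p = 0.0267), and was not called without either input library (adjusted p = 0.254 and 0.0624).

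**Figure D4:**
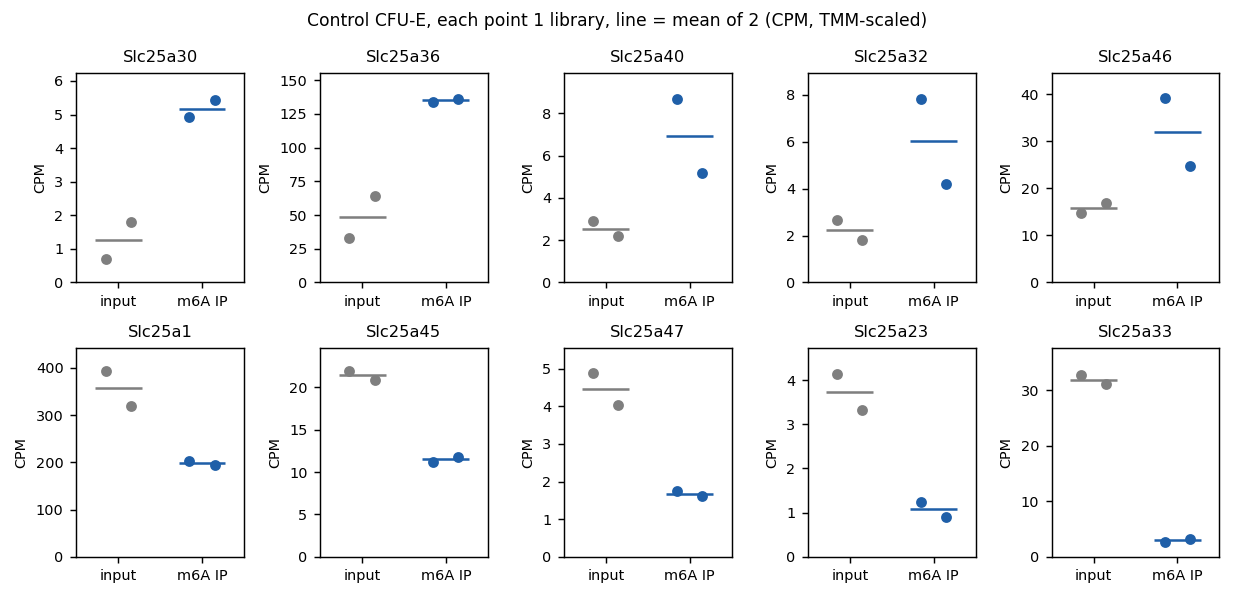
CPM of the 10 carriers called in the m6A experiment, in the 2 input and the 2 IP libraries of control CFU-E; each point is 1 library, lines are means, and every vertical axis starts at 0. The IP points lie above the input points in the 5 upper panels and below them in the 5 lower panels, with the widest relative gap for Slc25a33. The panels were picked by their calls, so this separation is no added support.

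Of the abundant carriers, Slc25a5 was at 4232 and 6353 CPM in the input and at 3539 and 5160 CPM in the IP, and was not called (log2 IP over input -0.28 ± 0.30, adjusted p = 0.557). Slc25a3, Slc25a11 and Slc25a39 were at -0.27, -0.30 and -0.69 with adjusted p of 0.467, 0.345 and 0.0559, and were not called either. With the replicate number as a block, Slc25a39 was called lower in the IP (-0.69, adjusted p = 0.00439). The mitochondrial lists are given beside shares of 7.9% enriched and 7.86% lower over all genes tested. Among related genes, Ucp2 and Mtch1 were lower in the IP (-1.23 ± 0.24 and -3.04 ± 0.27), 2 of 3 tested. In the input, Ucp2 was at 1.14 times and Mtch1 at 20.0 times its control RNA-seq CPM, and the part of this in their calls was not tested. Agk, an acylglycerol kinase of the TIM22 complex, was the 1 of 13 import genes that was enriched (1.31 ± 0.26). Of 19 mitochondrial transport genes from other families 4 were enriched and 0 lower. They were led by the calcium uniporter pore Mcu (1.82 ± 0.31), its regulator Micu3 (1.54 ± 0.30) and Sfxn5 (1.29 ± 0.37). Of 15 general mitochondrial genes 1 was enriched, Hspa9 (0.88).

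The median mRNA was longer in enriched than in depleted carriers, with overlapping ranges. In the annotation (GENCODE vM21), the median principal mRNA was 4371 bases for the 5 enriched carriers and 1887 bases for the 5 depleted ones, with 3023 and 702 bases after the stop codon. The lengths ran from 2784 to 5905 bases in the enriched and from 1580 to 3362 bases in the depleted group. The same order held over all tested genes, at 4174 bases for 901 enriched and 2314 bases for 897 depleted genes with a principal mRNA. GGACT was found in 37 of the 39 tested carriers (94.9%, beside 91.8% of all genes), at 1.02 per kilobase in enriched and 1.27 per kilobase in depleted carriers as medians, beside 0.935 and 1.08 per kilobase for all genes. Density was thus lower in the enriched group in both cases, while the median mRNA was longer. The part of length in the calls was not tested.

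The place of GGACT in the coding sequence differed in the carriers from genes at large. Of 78 GGACT in the coding sequences of 36 carriers, 38 lay in the frame that reads GGA as a codon, which is 48.7%, beside 6001 of 23300 (25.8%) in 8543 genes that had any. The windows of Slc25a33, Slc25a47, Slc25a36 and Slc25a32 above are of this kind. In that frame the letters encode glycine followed by leucine. Carriers descend from a shared repeat, so these sites are not independent of each other, and the share is a description of the family's sequence.

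The 38 carriers tested in both experiments were then set side by side. Slc25a46 was called higher in Kit-lo and enriched in the IP. Slc25a45 was called higher in Kit-lo and lower in the IP, and Slc25a1 was called lower in both. Slc25a51, Slc25a44 and Slc25a24 were higher in Kit-lo without a call in the IP, Slc25a27 and Slc25a21 were lower in Kit-lo without one, and no carrier was enriched in the IP and called lower in Kit-lo, although with the replicate number as a block Slc25a21 was enriched in the IP (0.51, adjusted p = 0.0225). The 4 enriched carriers Slc25a30, Slc25a36, Slc25a40 and Slc25a32 had log2 fold changes in Kit-lo of -0.05, 0.09, 0.49 and 0.01 and no call. Slc25a33, Slc25a23 and Slc25a47, lower in the IP, had log2 fold changes of -0.35, -0.77 and -0.72 in Kit-lo with adjusted p of 0.652, 0.272 and 0.283. The value of Slc25a33 depended on single libraries and ran from -0.60 without the third Kit-lo library to 0.12 without the second control library. In 22 carriers neither experiment gave a call.

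**Figure D5:**
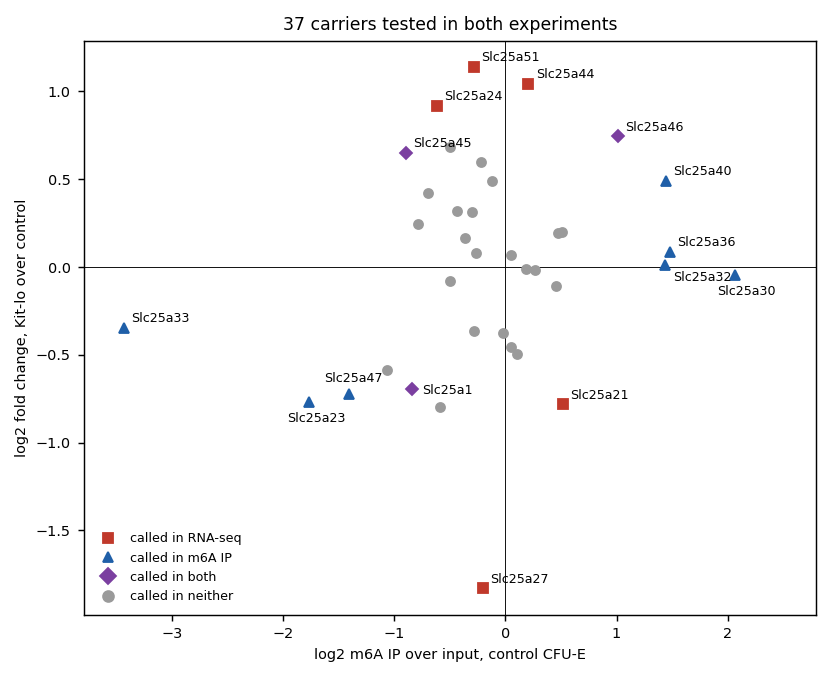
Log2 fold change in Kit-lo over control CFU-E (vertical) against log2 m6A IP over input in control CFU-E (horizontal) for 37 carriers tested in both; squares were called in RNA-seq, triangles in the IP, diamonds in both, grey points in neither. Slc25a46 is the diamond at the upper right, Slc25a45 and Slc25a1 are the diamonds at the left, and Slc25a33 stands alone at -3.44.

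The input libraries and the control RNA-seq libraries, both from control CFU-E, gave unlike levels for single carriers. Both start from oligo-dT primed cDNA, but the m6A libraries keep the fragments next to the 3′ primer. The tables were normalized separately, so the ratio of mean CPM is a description. It ran from 0.041 for Slc25a30 to 14.1 for Slc25a33 with a median of 1.08, and lay beyond 5-fold in either direction for 9 carriers. Slc25a5 was at 11.5 times its RNA-seq CPM in the input, and Slc25a24, Slc25a44 and Slc25a46 at 0.075, 0.104 and 0.126 times. Across carriers, which are not replicates, log2 CPM of the sources correlated with Pearson's r of 0.72. Among the carriers called in the IP, the most enriched and the most depleted were thus also those with the most unlike input level. The ratio ran from 0.041 to 0.387 in the 5 enriched carriers and from 0.921 to 14.1 in the 5 depleted ones. The part of this in the 10 calls was not tested. Slc25a48, with 2 counts in each input library, passed the filter only through the IP libraries and had a higher log2 IP over input of 2.27, without a call, and a ratio of 0.927.

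The carriers lay on 19 chromosomes, with 5 on chromosome 11 and at most 4 on any other. Slc25a29 and Slc25a47 were neighbours on chromosome 12 with 162 bases between them, and Slc25a43 and Slc25a5 were 18448 bases apart on chromosome X. Promoter windows of RefSeq (GRCm38, from 250 bases before to 50 bases after the start) were given for 32 of the 41 carriers, 42 windows in all. Slc25a46 was called in both experiments but is not among these 32 carriers. Slc25a1 and Slc25a45, also called in both, are shown with all matches to the searched letters in capitals:
Slc25a1 (chr16:17928170-17928469, minus strand): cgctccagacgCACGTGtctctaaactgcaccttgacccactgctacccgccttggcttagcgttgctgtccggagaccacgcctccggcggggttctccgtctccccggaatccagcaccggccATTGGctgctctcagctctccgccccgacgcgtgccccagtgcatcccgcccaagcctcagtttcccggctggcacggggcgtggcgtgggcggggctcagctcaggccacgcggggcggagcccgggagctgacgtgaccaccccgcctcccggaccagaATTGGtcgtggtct
Slc25a45 (chr19:5877572-5877871, plus strand): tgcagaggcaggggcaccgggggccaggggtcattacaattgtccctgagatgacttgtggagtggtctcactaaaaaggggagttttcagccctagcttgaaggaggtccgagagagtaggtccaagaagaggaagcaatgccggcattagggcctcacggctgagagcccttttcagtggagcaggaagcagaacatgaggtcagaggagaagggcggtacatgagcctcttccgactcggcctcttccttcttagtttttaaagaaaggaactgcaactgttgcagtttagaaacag

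The first window held CACGTG (E-box) and, on the other strand, CCAAT at 2 places, and the second held none of the letters searched. On both strands, CACGTG was in 16.7% of carrier windows beside 7.15% of all 32851 windows, CCAAT in 50% beside 37.4%, and the ETS core CCGGAAG in 11.9% beside 8.86%. The NRF1 site GCGCATGC was in 0 of 42 carrier windows beside 2.71% of all. A GATA site, searched as AGATAA or AGATAG and also with T as first letter, was in 23.8% beside 29.8%. No string searched contains another. These are matches of letters and do not show binding.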

How the data were processed

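Of 16 samples in the labels, 10 had a column of values and were grouped by their titles. The authors filtered reads with fastp 0.23.4, quantified transcripts with Kallisto 0.48.0 on mm10, merged them with tximport and deposited estimated counts per gene without normalization, all whole numbers. The labels' processing notes also name GRCm39. Whether the counting used strand or the molecular identifiers of the m6A libraries is not given in the sources used here, and counting error without them understates the spread.

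Each experiment was fitted alone over all genes in R 4.3.3 with edgeR 4.0.16 (TMM, filterByExpr, glmQLFit, glmQLFTest), without a replicate block, and DESeq2 1.42.0 was an alternative. The pipeline was tested on simulated data. Genes tested numbered 11979 and 11447, with a biological coefficient of variation of 19.1% and 21.9%. The labels do not say that replicates came from separate mice, so p-values measure the spread between these libraries. Exonic lengths, positions and mRNAs were from GENCODE vM21 (GRCm38), which held 99.9% of the 16010 symbols.

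The members and lists were chosen with earlier results of these data known. One carrier is counted in the totals and is not reported here. Named are the other carriers called in either experiment, the 5 with the highest per-length level, the pairs of relatives, carriers that were not tested, the excluded carriers, up to 3 called members of each mitochondrial list, Mettl3 and Kit. The IP value of Slc25a48 and the values of Slc25a14, Slc25a15, Slc25a17, Slc25a20, Slc25a26, Slc25a28, Slc25a29 and Slc25a43 fall outside this rule and were chosen after they were seen.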

Additional observations from a re-analysis of the deposited data

How the results depend on the processing

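Each count and median was recomputed under DESeq2, other scalings, other filters, other fold thresholds, a replicate block and without each library in turn, and 0 values that were called changed sign. Of the uncalled carriers followed gene by gene in RNA-seq, Slc25a4, Slc25a13, Slc25a33 and Slc25a36 changed sign. Other uncalled carriers, such as Slc25a30 and Slc25a32, were not followed this way. In RNA-seq a test against a fold of 1.5 (glmTreat) left 3 carriers higher (Slc25a51, Slc25a44 and Slc25a24) and 0 lower (4 and 3 at an unadjusted p under 0.05, beside 9.43% and 7.65% of all genes), and dropping the fold threshold gave 8 higher and 6 lower. Over all genes these settings gave 665 higher and 482 lower, and 2104 and 2024, beside 1453 and 1178. Without single libraries the carriers called higher ranged from 4 to 6, those called lower from 3 to 4, and the median log2 fold change from -0.012 to 0.071. The median was -0.027 with upper quartile scaling. The labels do not say what a shared replicate number marks, and the numbers were not used as pairs, with correlations of same-numbered deviations of 0.034, -0.017 and -0.072 in RNA-seq and 0.21 in m6A. With the replicate block 5 carriers were higher and 3 lower in RNA-seq (Slc25a27 not called, adjusted p = 0.0549), and 6 were enriched (Slc25a21 added) and 8 lower in the IP (Slc25a16, Slc25a26 and Slc25a39 added), beside 1783 and 1755 of all genes.

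The IP results moved more. Carriers lower in the IP were 3 with library size alone and 3 with upper quartile scaling, and the median log2 IP over input was -0.065 with library size alone. Those scalings moved the median of all genes from 0.056 to 0.21 and 0.18 and the share of calls that were higher from 50.1% to 60.6% and 65.8%. A minimum of 1 TPM in the input left 2 enriched carriers, since Slc25a30, Slc25a32 and Slc25a40 were below it. Without single libraries the enriched carriers ranged from 0 to 5, the depleted from 1 to 6 and the median from -0.32 to -0.085, while over all genes the enriched ranged from 164 to 1358 and the depleted from 427 to 968. Calls were lost for carriers with few counts (Slc25a30, 16 to 205 counts in a library) and with many (Slc25a1, 3847 to 8912 counts), and the causes of these shifts were not tested.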
